A study of Homo sapiens with 12 samples.

Results

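Long noncoding RNAs are transcripts that act without being translated, and several are followed in glioma for their level in tumor cells. Described here are 9 of them, MALAT1, NEAT1, LUCAT1, PVT1, NORAD, H19, MEG3, HOTAIRM1 and MIR22HG, in A172 cells, an established line grown from a single human glioblastoma. The members were chosen by name, as the intervals of the deposited count table that carry 1 of these 9 names, out of 48769 named gene intervals. Each name had 1 interval. Of the 9, 7 had enough reads for the test across genes, MEG3 was nearly without reads, and the MIR22HG interval could not be used as that gene.

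All cells were wild-type A172 without any other allele or agent named in the labels. They were transfected for 6 h with 3 µL of a 20 µM siRNA stock per well and a lipid reagent on day 1 after seeding. RNA was taken on day 2, which the labels describe as post transfection. The 3 groups received a scrambled siRNA as control, the first siRNA to uc.110 (siRNA-1) or the second (siRNA-2), with 4 libraries each, 12 in all. uc.110 is an ultraconserved region, a stretch of genome shared without difference between human, mouse and rat, and the groups set its knockdown against the control. Whether libraries of 1 group stem from separate cultures is not stated, and each p-value then measures only the spread among these libraries, which may be technical.

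Total counts over the 45116 gene intervals used ranged from 42781127 to 52950358 per library. The region uc.110 itself held 0 to 6 reads per scrambled library, 0 to 2 per siRNA-1 library and 0 to 4 per siRNA-2 library, so the knockdown could not be checked at this depth. The 7 markers of glioma cells summed to 13011.6 to 14926.8 CPM (reads scaled by TMM library size, as in all levels here) over the 12 libraries, of which SPARC alone held 9566.4 to 11620.0 CPM. Of the others, EGFR overlapped between the groups, at 178 to 193, 183 to 214 and 152 to 200 CPM in the order scrambled, siRNA-1, siRNA-2. The rest were not level. In the same order VIM stood at 2466.8 to 2733.1, 1611.3 to 1810.8 and 1897.5 to 2014.9 CPM. NES stood at 427 to 473, 481 to 566 and 331 to 382 CPM, and CD44 at 669 to 731, 574 to 610 and 849 to 879 CPM. FN1 was at 94.3 to 101, 102 to 118 and 189 to 207 CPM, and TNC at 6.0 to 7.86, 1.59 to 2.0 and 3.3 to 5.82 CPM. The part of these shifts in the results was not tested. Of 13 markers of immune, endothelial, neuronal and oligodendrocyte cells, 10 had an interval, 3 of these were under 1 CPM in every library, and their sum was 32.0 to 40.3 CPM. The neuronal gene SYT1 alone held 22.4 to 31.4 CPM of it, and each of the other 9 was at most 5.44 CPM. 45S ribosomal RNA took 1.702% to 5.089% of the reads in 10 libraries, 15.001% for siRNA-1 replicate 3 and 8.572% for siRNA-2 replicate 2. Scrambled replicate 1 alone covered 1679 intervals, where each other library alone covered 91 to 176.

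The 9 RNAs work in different ways. MALAT1 and NEAT1 are neighboring nuclear RNAs: MALAT1 gathers in nuclear speckles, which hold splicing factors, and NEAT1 is the scaffold of paraspeckles, bodies built on its long form that hold RNA-binding proteins such as NONO and SFPQ. NORAD is a cytoplasmic RNA that binds the PUMILIO proteins, repressors of their mRNA targets, and is linked to genome stability. H19 and MEG3 are imprinted, expressed from the maternal allele, and H19 is the precursor of miR-675. LUCAT1 is induced by stress and by the oxidative stress factor NRF2, PVT1 lies beside MYC, HOTAIRM1 lies in the HOXA cluster, and MIR22HG is the host of miR-22.

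The sequences that bear on the members called below are shown first, all from RefSeq tables of GRCh38.p14 except the NORAD windows. LUCAT1 and H19 changed most, and their promoters are given from 250 bases before to 50 bases after the annotated start. Capitals mark matches, on either strand, to the antioxidant response element core TGACNNNGC, the interferon-stimulated response element core GAAANNGAAA or the E-box CACGTG.
LUCAT1 promoter, chr5:91314353-91314652, minus strand: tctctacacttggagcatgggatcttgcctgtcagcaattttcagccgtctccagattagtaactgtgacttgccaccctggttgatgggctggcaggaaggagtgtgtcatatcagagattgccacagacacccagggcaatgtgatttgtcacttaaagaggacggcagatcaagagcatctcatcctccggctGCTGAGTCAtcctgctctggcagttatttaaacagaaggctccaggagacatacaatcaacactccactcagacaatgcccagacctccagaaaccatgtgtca
H19 promoter, chr11:2001217-2001516, minus strand: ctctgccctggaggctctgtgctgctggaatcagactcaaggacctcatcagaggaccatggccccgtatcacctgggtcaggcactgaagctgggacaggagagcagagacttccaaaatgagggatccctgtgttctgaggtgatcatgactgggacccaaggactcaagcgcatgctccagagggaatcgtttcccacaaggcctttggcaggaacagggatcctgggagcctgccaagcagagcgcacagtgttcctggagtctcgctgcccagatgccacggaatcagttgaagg
The LUCAT1 promoter held 1 match to the antioxidant response element core, 54 bases before the start, and these letters overlap a match to the AP-1 element TGANTCA. The H19 promoter held no match to any of the 4 words. Among all 35116 promoters of the table, 13.3% held the antioxidant response element core, 3.57% the interferon-stimulated response element core, 7.26% the E-box and 7.71% the AP-1 element. A match is a description of letters and says nothing of binding in these cells.

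NORAD carries the recognition element of PUMILIO proteins, TGTANATA, and these letters were counted on the longest GENCODE version 29 transcript of each gene. The NORAD transcript of 5339 bases held 15 copies, or 2.81 per kb, between positions 761 and 4599. NEAT1 held 6 copies in 22743 bases (0.26 per kb), LUCAT1 and MEG3 1 each, and the transcripts of MALAT1, PVT1, H19, HOTAIRM1 and MIR22HG none. Of 1488 long noncoding genes with a transcript of at least 3000 bases, 34.9% held at least 1 copy, and 4 genes, NORAD included, held at least as many as NORAD. The following windows, from the minus strand of chromosome 20, show 3 of the elements in capitals with 11 bases on each side, at positions 1140, 1241 and 1825 of the transcript, chosen to show both TGTATATA and TGTAAATA.
NORAD element, chr20:36049803-36049832: cctcactactgTGTATATAgttgacaatgc
NORAD element, chr20:36049702-36049731: aaatcacatttTGTAAATAcctttttgtta
NORAD element, chr20:36049118-36049147: aaataccacttTGTAAATAtctttttgcta
The NORAD promoter is shown for the same 3 words, since NORAD was called with siRNA-2.
NORAD promoter, chr20:36050911-36051210, minus strand: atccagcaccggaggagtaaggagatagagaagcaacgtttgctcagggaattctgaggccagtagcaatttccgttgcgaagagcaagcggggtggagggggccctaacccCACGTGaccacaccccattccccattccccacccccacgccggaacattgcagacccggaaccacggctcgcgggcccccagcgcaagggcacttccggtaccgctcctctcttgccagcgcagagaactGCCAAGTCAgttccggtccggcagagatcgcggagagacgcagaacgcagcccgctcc
It held 1 E-box match, 138 bases before the start, and 1 antioxidant response element core, 8 bases before it.

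H19 is the precursor of a microRNA, whose mature forms are shown because the MIR675 interval is described with H19. Capitals mark the seed, bases 2 to 8, and both lie on the minus strand of chromosome 11.
hsa-miR-675-5p, chr11:1996800-1996822: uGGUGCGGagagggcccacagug
hsa-miR-675-3p, chr11:1996768-1996787: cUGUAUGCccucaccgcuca
The seeds of the arms differ, and hsa-miR-4466 is the 1 other mature microRNA of the table with the seed of hsa-miR-675-5p.

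Per kilobase of annotated exon, NORAD was the most abundant member in the scrambled libraries, at 67.3 ± 1.58 CPM per kb (SD, n = 4), followed by MALAT1 at 29.2 ± 7.4. NEAT1 at 4.6 ± 1.04 and HOTAIRM1 at 4.4 ± 0.319 CPM per kb overlapped between libraries. PVT1 followed at 1.89 ± 0.259, LUCAT1 at 0.890 ± 0.0923 and H19 at 0.418 ± 0.0818 CPM per kb, and MEG3 was near 0. Per kilobase of counted interval, MALAT1 at 24.3 ± 6.17 and NORAD at 20.0 ± 0.468 CPM per kb overlapped, and the order below them changed. LUCAT1 at 0.473 ± 0.049 and H19 at 0.192 ± 0.0376 CPM per kb then lay above PVT1 at 0.0325 ± 0.00446. NEAT1 at 4.6 ± 1.04 lay above HOTAIRM1 at 1.09 ± 0.0787. Reads were counted over whole intervals, introns included, on either scale. The PVT1 interval spans 319049 bases, of which 5493 are annotated exon. The NORAD interval reaches 12650 bases beyond the RefSeq gene. With siRNA-2, H19 at 1.96 ± 0.319 CPM per kb of exon overlapped PVT1 at 1.89 ± 0.0882. LUCAT1 was then lowest of the tested members per kb of exon, at 0.195 ± 0.0213. Per kilobase of interval PVT1 was lowest instead, at 0.0326 ± 0.00152, below LUCAT1 at 0.103 ± 0.0113 and H19 at 0.903 ± 0.147.

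With siRNA-1, compared with the scrambled control, H19 was higher and LUCAT1 was lower, and the other 5 tested members did not pass the threshold. So 1 of 7 was called higher and 1 of 7 lower, where 28.6% of all 24935 genes tested were called higher and 24.8% lower. Among 7744 intervals that the table labels as lncRNA, 17.9% were higher and 19.7% lower. The median log2 fold change of the members was -0.05, against 0.01 over all genes. Adjusted p-values here and below come from edgeR's quasi-likelihood test with Benjamini-Hochberg adjustment over all genes tested.

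With siRNA-2, compared with the same control, H19 was again higher, LUCAT1 again lower, and NORAD was lower as well. That is 1 of 7 called higher, where 29.9% of all genes were, and 2 of 7 called lower, where 26.1% of all genes were. The median over the members was -0.19, against 0.01 over all genes. Counts of 1 or 2 in 7 are near or below these backgrounds and are no result about the members as a set. Both comparisons use the same 4 scrambled libraries.

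siRNA-2 against siRNA-1 tests where the siRNAs differ. H19 was higher and NORAD lower with siRNA-2, so 1 of 7 was called higher, where 15.8% of all genes were, and 1 of 7 lower, where 16.8% were. In this comparison 11.7% of the lncRNA intervals were higher and 7.5% lower, and the median over the members was -0.14.

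**Figure D1:**
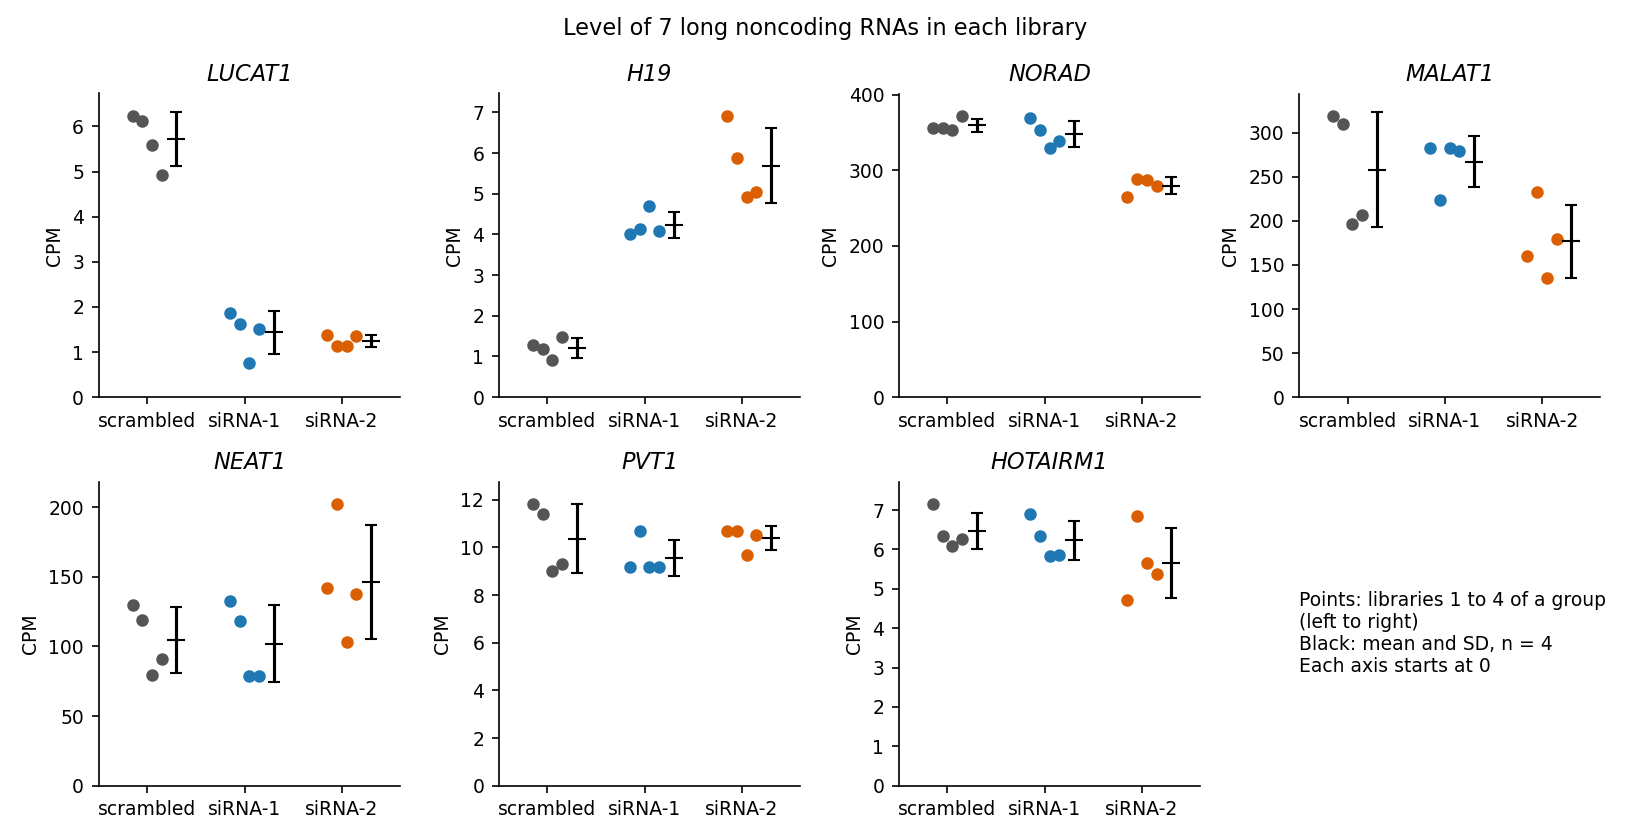
Level of the 7 tested members in CPM (vertical axes, each from 0) in the 4 libraries of each group, with points in replicate order and the mean and SD in black. LUCAT1 fell from 4.93 to 6.23 CPM in the scrambled group to at most 1.87 CPM with either siRNA, H19 rose from at most 1.47 to at least 4.02 CPM, and NORAD with siRNA-2 lay at 265 to 289 CPM, under all other libraries.

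LUCAT1, a stress-induced RNA on the minus strand of chromosome 5 (91302316 to 91314402, hg38), overlapped no other interval that was kept. It stood at 6.23, 6.11, 5.59 and 4.93 CPM in scrambled replicates 1 to 4, at 1.87, 1.62, 0.75 and 1.5 CPM with siRNA-1 and at 1.37, 1.13, 1.14 and 1.36 CPM with siRNA-2. No siRNA library reached the lowest scrambled one. The raw reads were 232 to 284 per scrambled library, 32 to 84 per siRNA-1 library and 58 to 70 per siRNA-2 library. LUCAT1 fell by 1.99 on the log2 scale (SE 0.18, adjusted p = 1.91e-09) with siRNA-1 and by 2.19 (SE 0.18, adjusted p = 3.57e-10) with siRNA-2. By fold change it ranked 29 and 21 from the lowest among the 7744 lncRNA intervals. Between the siRNAs the log2 fold change was not called, at -0.21 (SE 0.19, adjusted p = 0.463), although without siRNA-1 replicate 3, the library with the largest ribosomal share and the lowest LUCAT1, it was -0.41 (adjusted p = 0.0409).

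Beside LUCAT1, changes were smaller; here and below, "before" and "after" a member mean lower and higher coordinates. ARRDC3, an arrestin family gene 51.2 kb after it, went from 26.7 ± 1.73 CPM (SD, n = 4) to 18.7 ± 0.708 and 21.4 ± 1.45 CPM, log2 fold changes of -0.52 (SE 0.06, adjusted p = 2.43e-08) and -0.32 (SE 0.06, adjusted p = 2.63e-05). ADGRV1, a large adhesion receptor gene 131 kb before it, was not called, at -0.32 (SE 0.27) and -0.34 (SE 0.27).

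LUCAT1 is known as a target of NRF2, the factor that raises antioxidant and detoxifying enzymes, so a list of 22 genes, NRF2, its inhibitor KEAP1 and NRF2 target genes, was followed with it. Of these 21 were tested, 19 of them target genes. The list was chosen with earlier results of these data known, so its counts are a description and no independent test. Among the 19, 15 fell and 1 rose with siRNA-1, where 24.8% of all genes fell and 28.6% rose. With siRNA-2, 17 fell and 1 rose, where 26.1% of all genes fell and 29.9% rose. The median log2 fold changes of the 19 were -0.48 and -0.50. Over all genes the median was 0.01 in both. NFE2L2, which encodes NRF2, fell by 0.29 (SE 0.04) and 0.21 (SE 0.04), and KEAP1 rose by 0.21 and 0.24. Over all 17 alternatives, 1 of them chosen after seeing the data, the siRNA-1 comparison had 15 to 16 of the 19 lower and the siRNA-2 comparison 16 to 17, with 1 higher in each.

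The aldo-keto reductases fell most. AKR1B10, which reduces aldehydes, went from 5.46 ± 0.676 CPM to 1.37 ± 0.128 and 1.01 ± 0.208 CPM, log2 fold changes of -1.99 (SE 0.14, adjusted p = 1.31e-11) and -2.42 (SE 0.15, adjusted p = 4.34e-13). AKR1C2 fell by 1.57 and 1.32, AKR1C1 by 1.66 and 1.64 and AKR1C3 by 1.29 and 1.13. These AKR1C genes are similar in sequence, so reads may be divided between them uncertainly. The intervals of AKR1C1 and AKR1C2 also overlap, while that of AKR1C3 overlaps neither. SLC7A11, the cystine transporter of glutathione synthesis, fell by 0.84 and 1.05. The ferritin subunit genes FTL and FTH1 fell by 0.60 and 0.48 with siRNA-1 and by 0.50 and 0.73 with siRNA-2, with FTH1 overlapping BEST1. SRXN1, a sulfiredoxin gene, fell by 0.67 and 0.25. HMOX1, the heme oxygenase gene, went the other way and rose by 0.86 (SE 0.09) and 0.81 (SE 0.09). ABCC2, an export pump gene, was not called at 0.17 and 0.11. The target genes GCLM and GCLC were not called with siRNA-1, at -0.08 and 0.01, and fell by 0.26 and 0.15 with siRNA-2.

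**Figure D2:**
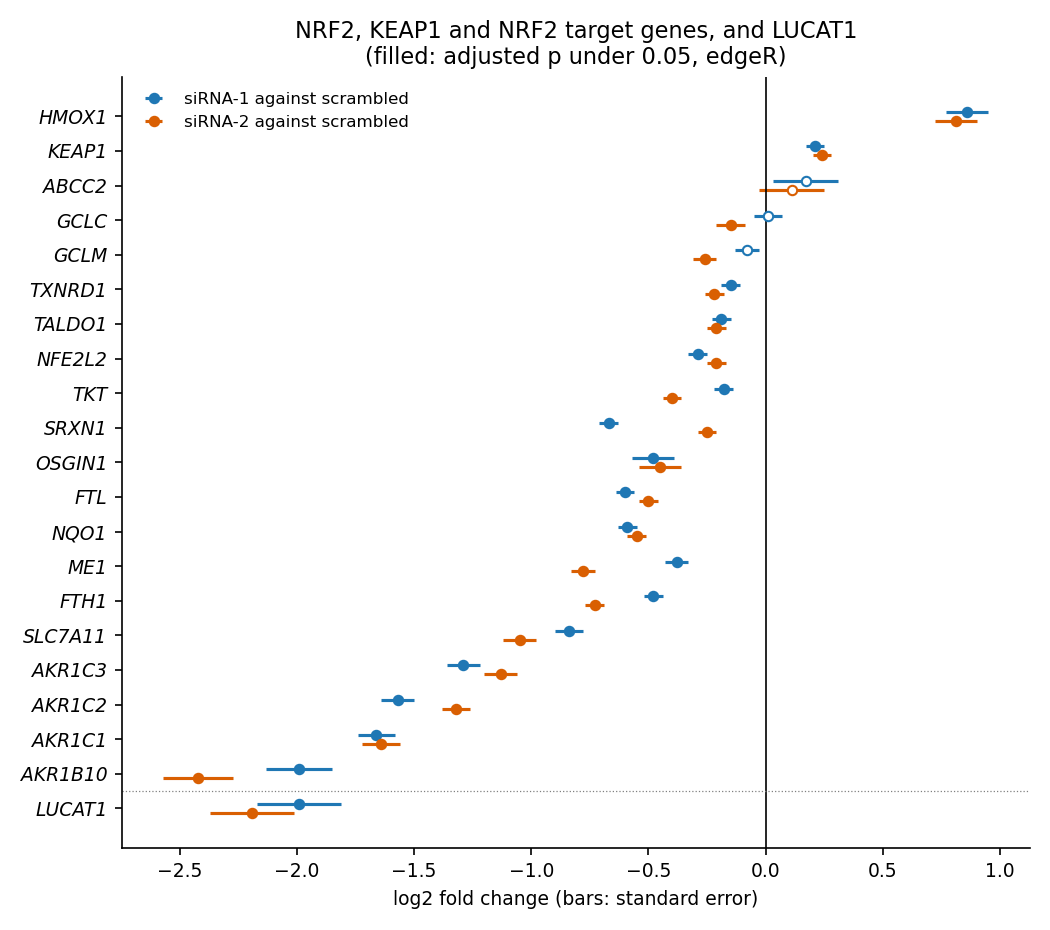
Log2 fold change against scrambled (horizontal axis, bars are standard errors) of NRF2 (NFE2L2), KEAP1, NRF2 target genes (20 of the 21 tested genes of the list in all) and LUCAT1, from 4 libraries against 4, filled where the adjusted p was under 0.05. AKR1B10 at -1.99 and -2.42 and LUCAT1 at -1.99 and -2.19 lie lowest, and HMOX1 at 0.86 and 0.81 lies highest.

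H19, an imprinted RNA on the minus strand of chromosome 11 (1995175 to 2001466), was low in the controls. It stood at 1.29, 1.18, 0.902 and 1.47 CPM in the scrambled libraries, at 4.02, 4.14, 4.71 and 4.09 CPM with siRNA-1 and at 6.91, 5.88, 4.92 and 5.03 CPM with siRNA-2. No library of 1 group overlapped another group. H19 rose by 1.81 on the log2 scale (SE 0.14, adjusted p = 7.6e-11), or 3.5-fold, with siRNA-1 and by 2.23 (SE 0.14, adjusted p = 9.12e-13), or 4.69-fold, with siRNA-2, which placed it at rank 123 and 121 from the highest of the 7744 lncRNA intervals. Between the siRNAs it was 0.42 higher with siRNA-2 (SE 0.12, adjusted p = 0.0107), and without siRNA-2 replicate 1, its highest library, 0.32 (adjusted p = 0.0609).

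MIR675 and HOTS, which overlap H19, rose with it. MIR675, the interval of the microRNA precursor, held 3 to 10 reads per scrambled library, 11 to 27 per siRNA-1 library and 33 to 40 per siRNA-2 library, and rose by 1.46 (SE 0.37, adjusted p = 0.00182) and 2.13 (SE 0.35, adjusted p = 1.24e-05). These reads lie in the H19 transcript and are a mean of 10.6% to 12.8% of the H19 count in each group, so they do not measure mature miR-675. HOTS, a gene on the opposite strand, shares 1120 bases with H19 and rose by 1.95 (SE 0.19) and 2.06 (SE 0.19), and the counts do not separate its strand from that of H19. The whole of H19 lies in the interval of MRPL23, a mitochondrial ribosomal protein gene at 51.2 ± 2.57 CPM, which was not called (0.01 and 0.02, SE 0.04).

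IGF2, the growth factor gene with which H19 shares an imprinting control region and enhancers, lies 127.6 kb after it and rose too. It stood at 2.78, 1.74, 2.17 and 1.91 CPM in the scrambled libraries, at 4.71, 5.06, 6.54 and 7.08 CPM with siRNA-1 and at 10, 8.51, 6.95 and 7.97 CPM with siRNA-2. Every siRNA library was above every scrambled one. IGF2 rose by 1.44 (SE 0.16, adjusted p = 6.73e-07) and 1.96 (SE 0.16, adjusted p = 8.69e-09), and was 0.51 higher with siRNA-2 than with siRNA-1 (SE 0.15, adjusted p = 0.0115). LSP1, a leukocyte actin-binding protein gene 101.1 kb before H19, went from 3.32 ± 0.317 to 5.39 ± 0.453 and 5.48 ± 0.332 CPM, a rise of 0.70 (SE 0.10) and 0.72 (SE 0.10).

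**Figure D3:**
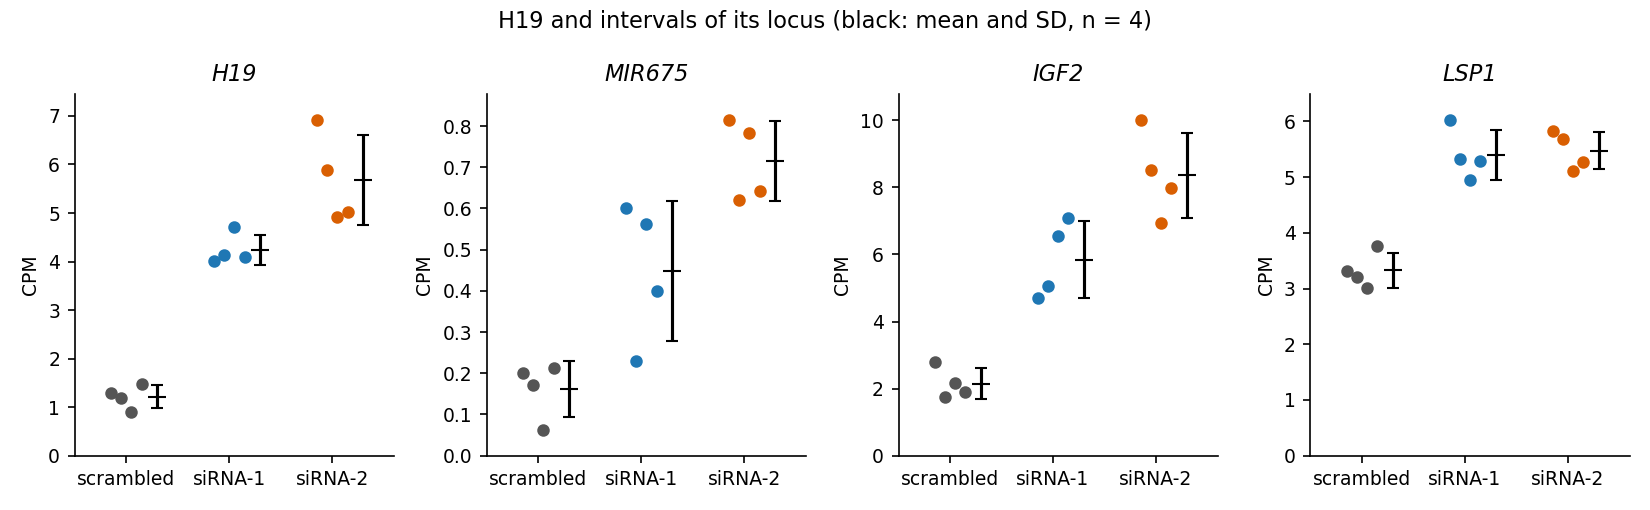
CPM (vertical axes, from 0) of H19, of the MIR675 interval inside it, and of its neighbors IGF2 and LSP1 in each library, with the mean and SD in black. For all 4, every library of either siRNA lay above every scrambled library, and IGF2 went from 2.15 ± 0.456 to 5.85 ± 1.14 and 8.36 ± 1.27 CPM.

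MEG3, a maternally expressed RNA of chromosome 14 (100826108 to 100861026), was nearly without reads. It held 2 reads in scrambled replicate 1, 1 read in siRNA-2 replicate 2 and 0 in the other 10 libraries. The 0 reads over the 4 siRNA-1 libraries allow up to 3 counts, or 0.016 CPM over that group, for counting error only. An exact two-sided permutation test of CPM gave p = 1.0 in each comparison, but it could not decide. Where 1 library held all the reads, each of the 70 assignments gives the same size of difference, so p was fixed in advance. With reads in 2 libraries the smallest p of 70 assignments, 0.0286, was out of reach as well. A difference was not detectable at this depth. BEGAIN, a brain scaffold protein gene 238.7 kb before MEG3, rose by 1.45 (SE 0.18) and 1.84 (SE 0.18), from 0.732 ± 0.144 CPM.

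Genes listed as imprinted moved in either direction. Of 24 genes in the list 11 were tested, 10 listed as imprinted, IGF2 among them, and the boundary factor gene CTCF. Of the 10, 3 rose and 4 fell with siRNA-1, where 28.6% and 24.8% of all genes did. With siRNA-2, 2 rose and 3 fell, where 29.9% and 26.1% of all genes did. The medians of the 10 were 0.01 and -0.05. CTCF was 0.05 (SE 0.04, not called) with siRNA-1 and rose by 0.16 (SE 0.04) with siRNA-2. PEG10, a gene of retrotransposon origin, rose by 0.22 (SE 0.06) with siRNA-1 and fell by 0.76 (SE 0.06) with siRNA-2, a difference between the siRNAs of -0.98 (SE 0.06, adjusted p = 1.04e-11). MEST, another paternally expressed gene, rose by 0.3 with siRNA-1 and fell by 0.38 with siRNA-2. PLAGL1, a zinc finger gene that overlaps HYMAI, fell by 0.69 (SE 0.11) with siRNA-1 and was 0.02 (SE 0.11, not called) with siRNA-2. SNRPN, whose interval overlaps SNHG14 and SNURF, fell by 0.49 and 0.57.

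NORAD, the PUMILIO-binding RNA on the minus strand of chromosome 20 (36045618 to 36063610), had the lowest coefficient of variation of the tested members within each group, 2.3%, 5.0% and 3.8%. It stood at 356, 356, 354 and 372 CPM with scrambled siRNA, at 370, 354, 330 and 339 CPM with siRNA-1 and at 265, 289, 287 and 279 CPM with siRNA-2. The siRNA-2 libraries lay below all 8 others, while siRNA-1 and scrambled overlapped. NORAD fell by 0.36 on the log2 scale (SE 0.04, adjusted p = 1.76e-08) with siRNA-2, to 0.779 of the scrambled level, and was -0.05 (SE 0.04, adjusted p = 0.345) with siRNA-1. The siRNAs differed by -0.31 (SE 0.04, adjusted p = 7.44e-07). With every gene interval in the fit, NORAD passed with siRNA-1 too, at -0.10 (adjusted p = 0.0293).

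Of 8 NORAD partner and PUMILIO genes, 3 rose and 1 fell with siRNA-1, where 28.6% and 24.8% of all genes did. With siRNA-2, 3 rose and 2 fell, where 29.9% and 26.1% of all genes did. Without scrambled replicate 1, the library with many intervals of its own, and with every gene interval in the fit, 2 fell with siRNA-1 and 4 with siRNA-2. The range over all 17 alternatives was 1 to 2 and 2 to 4. PUM2 rose by 0.14 (SE 0.04) and 0.09 (SE 0.04) and ALYREF, an mRNA export factor gene that overlaps ANAPC11, by 0.85 (SE 0.04) and 0.57 (SE 0.04). RBMX, a nuclear RNA-binding protein gene, fell by 0.26 (SE 0.04) and 0.48 (SE 0.04). The 3 genes most like NORAD over the 12 libraries, more than 1 Mb away, were PROS1 (Pearson r = 0.99), MYLK-AS1 (0.988) and OPA1-AS1 (0.984), the latter pair in overlap with MYLK and OPA1. PROS1, which encodes anticoagulant protein S, had log2 fold changes of -0.10 and -0.57. These r values are over libraries that share the 3 groups and are a description. The protein-coding neighbors of NORAD rose: CNBD2, which overlaps SCAND1, by 0.35 and 0.24 and EPB41L1, which overlaps AAR2 and begins 1.2 kb from the NORAD interval, by 0.63 and 0.34.

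MALAT1 (chromosome 11, 65497680 to 65508270, plus strand) varied widely within groups. It stood at 319, 310, 196 and 207 CPM with scrambled siRNA, at 283, 224, 283 and 279 CPM with siRNA-1 and at 160, 233, 135 and 179 CPM with siRNA-2. Scrambled replicates 1 and 2 were high and 3 and 4 low, and the siRNA-2 libraries overlapped both other groups. The log2 fold change was 0.05 (SE 0.21, adjusted p = 0.858) with siRNA-1, -0.54 (SE 0.21, adjusted p = 0.0541) with siRNA-2 and -0.60 (SE 0.21, adjusted p = 0.0599) between the siRNAs. With siRNA-2 it passed under 9 of 17 alternatives, with adjusted p from 0.0182 to 0.136 over all of them, so the call rests on the processing. Among these were leaving out scrambled replicate 3 (-0.66, adjusted p = 0.0298), scrambled replicate 4 (-0.64, adjusted p = 0.0381) or siRNA-2 replicate 2 (-0.70, adjusted p = 0.0191). Between the siRNAs it passed without siRNA-2 replicate 2 (-0.76, adjusted p = 0.0254) and with DESeq2 (adjusted p = 0.0164). TALAM1, the antisense RNA, lies inside MALAT1 and held a mean of 89.7% to 91.5% of its reads in each group, so the strands cannot be told apart. MASCRNA, the small tRNA-like RNA cut from the end of MALAT1, held 0 to 19 reads.

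NEAT1 (chromosome 11, 65422775 to 65445540, plus strand) stood at 130, 119, 79.3 and 90.9 CPM with scrambled siRNA, at 133, 118, 78.5 and 79.0 CPM with siRNA-1 and at 142, 202, 103 and 138 CPM with siRNA-2. In all 3 groups replicates 1 and 2 lay above replicates 3 and 4. The log2 fold change was -0.04 (SE 0.26, adjusted p = 0.921) with siRNA-1, 0.48 (SE 0.26, adjusted p = 0.15) with siRNA-2 and 0.52 (SE 0.26, adjusted p = 0.174) between the siRNAs, so none was called. The counts join the short and the long form. LOC107984338, on the opposite strand, shares the first 606 bases of NEAT1 and held a mean of 18.4% to 20.3% as many reads as NEAT1, at 0.59 (SE 0.27, adjusted p = 0.0958) with siRNA-2 and 0.75 (adjusted p = 0.0376) without siRNA-2 replicate 3.

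NEAT1 and MALAT1 were also set against each other within a library. The ratio of NEAT1 to MALAT1 CPM was 0.406, 0.385, 0.405 and 0.438 with scrambled siRNA and 0.469, 0.526, 0.277 and 0.283 with siRNA-1. With siRNA-2 it was 0.887, 0.867, 0.765 and 0.769. All siRNA-2 libraries lay above the 8 others. The mean was 0.822 ± 0.064 (SD, n = 4) with siRNA-2, 0.409 ± 0.022 with scrambled siRNA and 0.389 ± 0.128 with siRNA-1, and siRNA-1 and scrambled overlapped. The ratio was chosen after its values were seen and is given as a description, with no test. It is free of library scaling and does not tell which RNA changed.

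**Figure D4:**
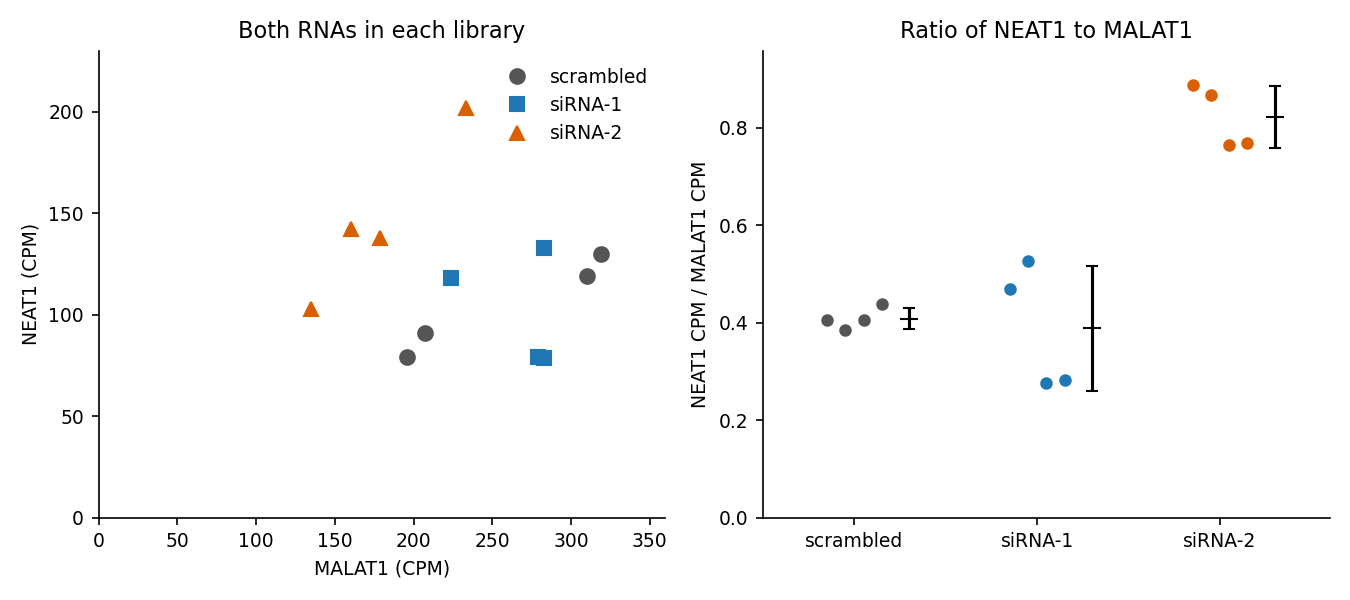
Left, NEAT1 against MALAT1 in CPM, 1 point per library; right, the ratio of both in each library with the mean and SD in black. The siRNA-2 libraries have ratios of 0.765 to 0.887, above the 0.277 to 0.526 of the other 8 libraries.

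Genes of the bodies these RNAs belong to changed in either direction. Of 20 paraspeckle protein genes, 6 rose and 8 fell with siRNA-1, where 28.6% and 24.8% of all genes did. With siRNA-2, 4 rose and 12 fell, where 29.9% and 26.1% of all genes did. The medians of the 20 were 0.00 and -0.13, against 0.01 over all genes. Under the 17 alternatives 4 to 5 rose and 5 to 9 fell with siRNA-1, the 5 without siRNA-1 replicate 1. RBM3, a cold-inducible RNA-binding protein gene whose interval overlaps TBC1D25, changed most, from 123 ± 11 CPM to 68.5 ± 8.07 and 51.3 ± 6.35 CPM, a drop of 0.85 (SE 0.11, adjusted p = 8.7e-05) and 1.27 (SE 0.11, adjusted p = 3.6e-06). SFPQ, a core paraspeckle protein gene, fell by 0.17 and 0.24, and NONO was -0.03 (not called) and fell by 0.13. PSPC1, of the same protein family, rose by 0.55 (SE 0.04) and 0.42 (SE 0.04), while NUDT21, a cleavage factor gene that acts on NEAT1 3′ end choice, fell by 0.16 and 0.40, and DAZAP1 by 0.32 and 0.28. Of 18 nuclear speckle and MALAT1 processing genes, 7 rose and 3 fell with siRNA-1 and 6 rose and 7 fell with siRNA-2. These counts stand beside the same shares of all genes. With siRNA-1, 5 of the 18 fell without scrambled replicate 1. Likewise 5 fell with the filter of 1 CPM, with scaling on protein-coding genes and with every gene interval. RNPS1, a splicing activator gene that overlaps LOC107984839, rose by 0.79 (SE 0.03) and 0.75 (SE 0.03), and METTL16, an RNA methyltransferase gene whose product binds MALAT1, by 0.88 (SE 0.04) and 0.47 (SE 0.04).

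Among neighbors, LOC101927789, between NEAT1 and MALAT1, was 0.03 with siRNA-1 and rose by 0.53 (SE 0.16, adjusted p = 0.00684) with siRNA-2. FRMD8, before NEAT1, rose by 0.20 (SE 0.05) with siRNA-1 and was -0.01 with siRNA-2. Over the 12 libraries TIMM23B (r = 0.942) was most like MALAT1 and ARHGAP4 (r = 0.921) most like NEAT1, given as a description.

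PVT1 (chromosome 8, 127794533 to 128113581) was not called in any comparison. It stood at 11.8, 11.4, 9.00 and 9.29 CPM with scrambled siRNA, at 9.18, 10.7, 9.16 and 9.18 CPM with siRNA-1 and at 10.7, 10.7, 9.68 and 10.5 CPM with siRNA-2. The groups overlapped, and the log2 fold changes were -0.12 (SE 0.08, adjusted p = 0.261), 0.01 (SE 0.08, adjusted p = 0.963) and, between the siRNAs, 0.12 (SE 0.08, adjusted p = 0.3). The intervals of MIR1204 to MIR1207 lie inside PVT1, at 4 to 56 reads per library. MIR1205, of 63 bases, and LINC02912, 11.9 kb away, differed by at most 4 reads in any library, so these counts are not read as separate RNAs. None was called against scrambled, and MIR1207 passed with siRNA-1 (-0.90, adjusted p = 0.0356) when siRNA-1 replicate 2 was left out. Between the siRNAs MIR1205 (0.94, adjusted p = 0.0273) and MIR1206 (0.99, adjusted p = 0.0426) were higher with siRNA-2. The MIR1205 call was lost without siRNA-1 replicate 1, 3 or 4 or siRNA-2 replicate 1 or 2 (0.75 to 0.95, adjusted p from 0.0534 to 0.119). That of MIR1206 was lost without siRNA-1 replicate 1 or 3 or siRNA-2 replicate 1, 2 or 4 (0.71 to 1.06, adjusted p from 0.0509 to 0.194). It was also lost with DESeq2 (0.0665) and with only the groups compared (0.0509). Without both libraries of high ribosomal share both calls were lost, MIR1205 at 0.76 (adjusted p = 0.163) and MIR1206 at 0.61 (adjusted p = 0.329). The H3P4 and H2BP1 pseudogene intervals, which overlap each other, were most like PVT1 (r = 0.931 and 0.912).

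MYC, the oncogene 50.6 kb before PVT1, fell while PVT1 was not called. It went from 21.9 ± 0.782 CPM to 15.3 ± 1.69 and 14.8 ± 0.794 CPM, a drop of 0.52 (SE 0.07, adjusted p = 2.84e-07) and 0.57 (SE 0.07, adjusted p = 4.81e-08). Every siRNA library lay below every scrambled one. Of 18 MYC and MYC target genes, 2 rose and 7 fell with siRNA-1, where 28.6% and 24.8% of all genes did. With siRNA-2, 4 rose and 11 fell, where 29.9% and 26.1% of all genes did. But each of the 17 alternatives gave 1 to 3 higher with siRNA-2 in place of 4. It was 1 with no filter, with every gene interval, without both libraries of high ribosomal share and without siRNA-2 replicate 1. It was 3 without scrambled replicate 2, and 2 without siRNA-2 replicate 2, 3 or 4 or scrambled replicate 1, 3 or 4. TFRC, the transferrin receptor gene, fell by 0.80 (SE 0.05) and 1.14 (SE 0.05) and ODC1, the polyamine synthesis enzyme gene, by 0.40 and 0.65. LDHA was 0.03 with siRNA-1 and fell by 0.49 (SE 0.04) with siRNA-2, and PPAN, a ribosome biogenesis gene in overlap with P2RY11, rose by 0.41 and 0.35.

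HOTAIRM1, a myeloid-associated RNA at the start of the HOXA cluster (chromosome 7, 27096094 to 27102043), stood at 7.14, 6.35, 6.09 and 6.27 CPM with scrambled siRNA, at 6.89, 6.35, 5.83 and 5.85 CPM with siRNA-1 and at 4.72, 6.86, 5.66 and 5.38 CPM with siRNA-2. The groups overlapped. The log2 fold changes were -0.05 (SE 0.10, adjusted p = 0.699), -0.19 (SE 0.10, adjusted p = 0.121) and, between the siRNAs, -0.14 (SE 0.10, adjusted p = 0.342). Without siRNA-2 replicate 2, the highest library of its group and the one with a raised ribosomal share, the change with siRNA-2 was -0.29 (adjusted p = 0.0168). The interval overlaps HOXA2, whose reads were 4.97% to 14.1% of its count over all libraries.

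The HOXA genes did not move as 1 block. Of 10 tested HOXA genes, 5 rose and 2 fell with each siRNA. Of all genes, 28.6% rose and 24.8% fell with siRNA-1, and 29.9% rose and 26.1% fell with siRNA-2. HOXA3, HOXA4 and HOXA5, whose intervals share reads, rose by 0.19, 0.48 and 0.86 with siRNA-1 and by 0.35, 0.66 and 0.51 with siRNA-2, the siRNA-1 call of HOXA3 being lost under 5 of 17 alternatives (0.14 to 0.17, adjusted p from 0.0559 to 0.0918). These were no filter, only the groups compared, every gene interval, and leaving out scrambled replicate 2 or siRNA-1 replicate 4. The abundant genes HOXA9 and HOXA10, both overlapping the HOXA10-HOXA9 interval, fell by 0.27 and 0.48 with siRNA-1 and by 0.78 and 0.72 with siRNA-2. SKAP2, the gene beyond the cluster, fell by 0.47 and 0.65.

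**Figure D5:**
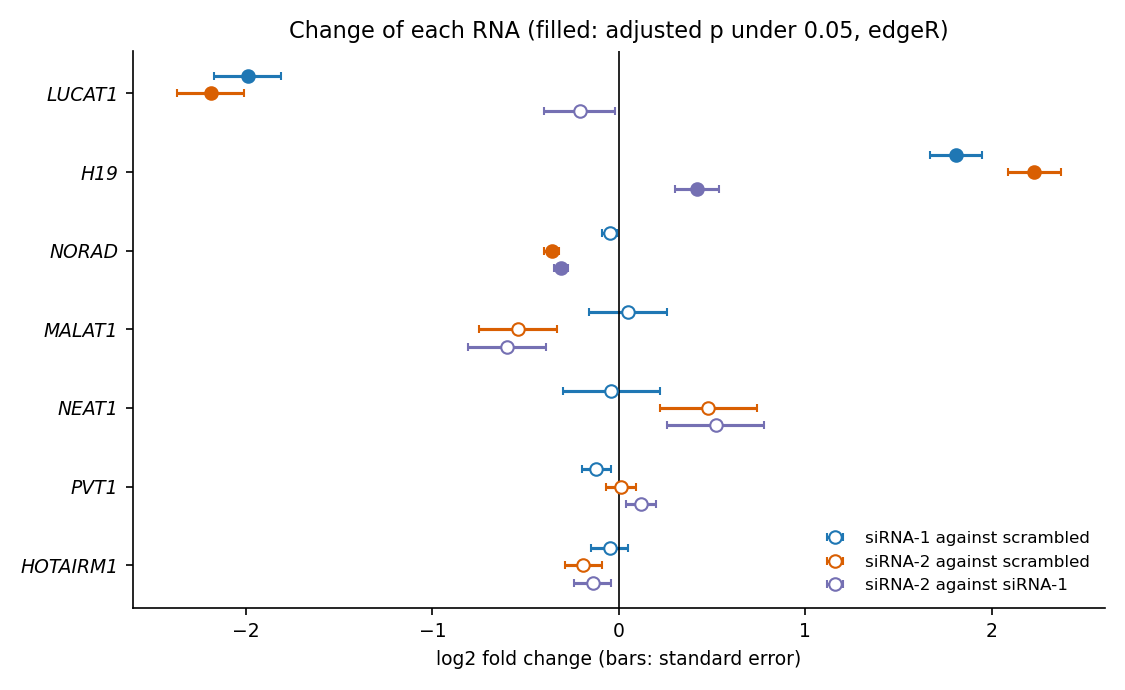
Log2 fold change (horizontal axis) with its standard error for each tested member in 3 comparisons, filled where the adjusted p was under 0.05. LUCAT1 at -1.99 and -2.19 and H19 at 1.81 and 2.23 stand apart from the other members, NORAD is filled where siRNA-2 takes part, and the bars of MALAT1 and NEAT1 are the widest, with SE of 0.21 and 0.26.

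MIR22HG, the host gene of miR-22, has an interval of 1574.8 kb in the table (chromosome 17, 141532 to 1716341), against 4707 bases in RefSeq. It takes in 36 other intervals, and that of YWHAE, a 14-3-3 protein gene, held a median of 52.8% as many reads. The count of that interval is therefore not a measure of MIR22HG. The reads in it but outside the interval of MIR22, which spans nearly all of it but 2354 bases at the start of the gene and 2399 at the far end, were 83, 95, 42 and 65 with scrambled siRNA and 62, 50, 59 and 52 with siRNA-1. With siRNA-2 they were 48, 83, 46 and 61. This quantity, chosen after seeing the data, had log2 fold changes of -0.32 (SE 0.23, adjusted p = 0.242) and -0.36 (SE 0.22, adjusted p = 0.182), and the groups overlapped. Reads that also touch the MIR22 interval are not in it, and an interval over the far end held 5 to 23 reads per library.

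For comparison, 48 other long noncoding RNA genes that are studied in glioma were followed. With siRNA-1, 10 rose and 20 fell, where 17.9% and 19.7% of the 7744 lncRNA intervals did. With siRNA-2, 10 rose and 15 fell, where 21.4% and 18.7% of the lncRNA intervals did. The medians of the 48 were -0.15 and -0.10, against -0.05 and -0.0 over the lncRNA intervals. DANCR, an RNA tied to the undifferentiated state whose interval overlaps SNORA26, fell by 1.76 (SE 0.09) and 1.86 (SE 0.09), LINC01116, which overlaps LINC01117, by 1.16 (SE 0.08) and 1.24 (SE 0.08), and OIP5-AS1, which overlaps OIP5, by 0.46 and 0.84. UCA1, named for urothelial cancer and in overlap with LINC01764, rose by 1.60 (SE 0.05) with siRNA-1 and by 0.51 (SE 0.05) with siRNA-2, a difference of -1.08 (SE 0.05, adjusted p = 1.91e-12). HIF1A-AS2 rose by 0.77 and 0.44, but its interval overlaps HIF1A and shares reads with it.

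The genes most like H19 over the 12 libraries were CORO1A (r = 0.992), HOXB9 (0.992) and CBS (0.991), with log2 fold changes against scrambled of 1.29 and 1.5 for CORO1A, 1.22 and 1.6 for HOXB9 and 0.91 and 1.12 for CBS. Those most like LUCAT1 were CCDC162P (r = 0.981), which overlaps CD164, SEPHS1 (0.98) and CAMKK1 (0.979), with CAMKK1, a calcium-dependent kinase gene, at -0.96 and -1.01. For HOTAIRM1 the closest was RBKS at r = 0.887. Each member was compared with 16595 to 16672 genes, and all r values share the 3 groups.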

How the data were processed

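RNA of A172 cells, 4 libraries for each of 3 groups, was sequenced. The authors deposited a table of raw counts, whole reads per interval without normalization, for CHESS and RefSeq gene spans and 962 ultraconserved or random regions. Salmon and hg38 are named, without a version, per the submitters' processing notes; the tool and strand setting of the interval counts are not named in the sources used here. Overlapping intervals share reads whatever their strand. The RNA selection step is likewise not named in these sources.

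Of 48769 named gene intervals, 45116 were kept. Left out were 1932 reaching over 100 kb beyond their gene (MIR22HG among them), 1089 under older names, 448 with the counts of another interval, 75 unmatched and over 1 Mb long, 49 of ribosomal RNA, 28 with a number for a name, 24 copies on chromosome Y and 8 longer rows of a repeated name. edgeR 4.0.16 (R 4.3.3) was used with TMM, filterByExpr (minimum count 10, minimum total 15; 24935 genes), a robust quasi-likelihood fit with 1 term, the group, over the 12 libraries and a Benjamini-Hochberg threshold of 0.05. The fit was tested on simulated data. CPM use TMM-scaled library sizes. MEG3 was tested by exact permutation over libraries.

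Members, lists and markers were chosen with earlier results of these data known. The text names all members, intervals inside them, the nearest tested protein-coding gene on each side within 500 kb (LOC101927789 is labelled so in the table; some genes these rules name are not reported here), up to 3 genes per list with the smallest p in each comparison and groups apart, other list genes chosen after their values were seen, and per member the 3 genes (average log2 CPM at least 1, over 1 Mb away) of highest Pearson r. The alternatives were DESeq2 1.42.0 and its size factors, 2 other filters, only the groups compared, a replicate block, scaling on protein-coding genes, every interval, leaving out each library and, added after seeing the data, leaving out both libraries of high ribosomal share. Motifs were sought in RefSeq promoters of GRCh38.p14 and GENCODE version 29 transcripts; tables and figures were made with matplotlib 3.10.9, pandas 2.3.3 and numpy 2.4.6 in Python 3.11.15.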

Additional observations from a re-analysis of the deposited data

Results flagged for a closer look

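In 4 of 21 combinations of a tested member and a group, 1 library lay far from the other 3 by Dixon's criterion for 4 values, where chance gives about 1 in 20. They were MALAT1 in siRNA-1 replicate 2 (224 CPM, the others 279 to 283), PVT1 in the same library (10.7 CPM, the others 9.16 to 9.18), NORAD in scrambled replicate 4 (372 CPM, the others 354 to 356) and H19 in siRNA-1 replicate 3 (4.71 CPM, the others 4.02 to 4.14), a library with a ribosomal share of 15.001%.

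For 2 members the siRNAs differed by the test of the difference itself. NORAD was lower with siRNA-2 than with siRNA-1 (log2 fold change -0.31, adjusted p = 7.44e-07, edgeR), in 4 of 4 libraries, and H19 was higher (0.42, adjusted p = 0.0107), in 4 of 4 libraries.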

How the results depend on the processing

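Against scrambled, LUCAT1 and H19 kept their direction and call under all 17 alternatives, with log2 fold changes of -2.14 to -1.78 and 1.69 to 1.90 for siRNA-1 and -2.27 to -2.14 and 2.11 to 2.32 for siRNA-2, as did NORAD with siRNA-2 (-0.42 to -0.35). With every gene interval in the fit, 2 members were lower with siRNA-1 (NORAD at -0.10, adjusted p = 0.0293) and 4 with siRNA-2 (MALAT1 and HOTAIRM1 added). Leaving out 1 library gave 2 to 4 members lower with siRNA-2 (4 without siRNA-2 replicate 2, as MALAT1 and HOTAIRM1 passed) and, between the siRNAs, 1 to 2 lower (LUCAT1 passed without siRNA-1 replicate 3, MALAT1 without siRNA-2 replicate 2) and 0 to 1 higher (H19 lost without siRNA-2 replicate 1). Without both libraries of high ribosomal share 4 were lower with siRNA-2. DESeq2 called 2 lower between the siRNAs, MALAT1 the added one. Same-numbered libraries did not deviate together (correlations of -0.221 to 0.147 over 12458 genes), so the numbers were not taken as pairs; with the replicate block 2 members were higher with siRNA-2 against scrambled and 2 against siRNA-1, as NEAT1 passed (adjusted p = 0.0161 and 0.0199), and so did LOC107984338 on its opposite strand (0.000564 and 0.000638). Between the siRNAs 7 of 21 tested NRF2 list genes were lower, where 16.8% of all genes were. The count was 3 without both libraries of high ribosomal share and 3 to 7 with 1 library left out (3 without siRNA-1 replicate 3, 4 without siRNA-2 replicate 2). The cause of these shifts was not tested. The other genes followed were neighbors, overlapping intervals, list genes picked by p, genes of highest r and RBM3, not all genes tested. For these, 3891 of the comparisons with an alternative kept their call, 89 gained and 76 lost it. The longest row per name was not run, since each name had 1 row. MEG3 and the microRNA intervals inside members are limited by depth.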
